A study of Homo sapiens with 8 samples.

Results

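AP-1 and immediate early genes, 10 in all, were followed across 8 RNA sequencing libraries of MCF-10A, a widely used human breast epithelial line that does not form tumours. They are the 4 FOS genes (FOS, FOSB, FOSL1 and FOSL2), the 3 JUN genes (JUN, JUNB and JUND), EGR1, IER2 and MYC, taken by matching Ensembl identifiers to symbols (ENSG00000170345, ENSG00000125740, ENSG00000175592, ENSG00000075426, ENSG00000177606, ENSG00000171223, ENSG00000130522, ENSG00000120738, ENSG00000160888 and ENSG00000136997, in this order). They are 10 of the 60617 genes in the deposited count table, and all 10 were among the 17693 genes with enough counts to be tested. Cells labelled Empty or NeuT were left untreated or kept for 12 h in 1 µM JG-98, an inhibitor of Hsp70 chaperones, with 2 libraries in each of the 4 groups. All groups were grown in medium with horse serum, epidermal growth factor, hydrocortisone, insulin and cholera toxin, so growth factor was present in the untreated cells as well. What was introduced into NeuT cells is not described in the labels, nor is it said whether the 2 replicates came from separate cultures, so p-values measure only the spread between these libraries. The stated purpose of the series was a comparison of how transformed cells respond to JG-98.

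Immediate early genes are transcribed within minutes of a signal such as growth factor or stress, from factors already present in the cell and without new protein synthesis. FOS and JUN proteins carry a basic leucine zipper and bind DNA in pairs as the transcription factor AP-1, in which a FOS protein needs a JUN partner while JUN proteins can also pair with each other. FOS, FOSB, JUNB, EGR1 and IER2 are known for brief pulses of RNA, whereas FOSL1, FOSL2 and JUND are known for longer lasting expression. In epithelial cells AP-1 is known for control of matrix proteases, cytokines and differentiation genes. MYC is a helix-loop-helix factor that pairs with MAX and is known for promoting ribosome production and growth.

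The sequence just before the transcription start is shown for the members in which a searched motif was found, because these elements are where serum response factor, ATF/CREB factors and the general transcription machinery act on such genes. Sequences are from the RefSeq promoter table (GRCh38.p14), which held 8 of the 10 members and not FOSL1 or MYC. Each is the run from 250 to 11 bases before the start, 240 bases, 5′ to 3′ on the strand of the gene, with motif matches in capitals. The windows are chr14:75278578-75278817 (plus strand) for FOS, chr19:45467746-45467985 (plus) for FOSB, chr19:12791236-12791475 (plus) for JUNB, chr19:18281633-18281872 (minus) for JUND and chr5:138465229-138465468 (plus) for EGR1.
FOS: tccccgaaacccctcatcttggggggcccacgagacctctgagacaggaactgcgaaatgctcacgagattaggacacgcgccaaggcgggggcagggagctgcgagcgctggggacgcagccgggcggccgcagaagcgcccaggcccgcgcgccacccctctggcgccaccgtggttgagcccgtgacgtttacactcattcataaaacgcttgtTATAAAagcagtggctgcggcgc
FOSB: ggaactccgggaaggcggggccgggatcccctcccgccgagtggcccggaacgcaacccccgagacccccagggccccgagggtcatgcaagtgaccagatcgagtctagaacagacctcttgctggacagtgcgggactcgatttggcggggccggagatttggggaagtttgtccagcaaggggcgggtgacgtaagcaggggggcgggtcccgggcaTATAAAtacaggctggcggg
JUNB: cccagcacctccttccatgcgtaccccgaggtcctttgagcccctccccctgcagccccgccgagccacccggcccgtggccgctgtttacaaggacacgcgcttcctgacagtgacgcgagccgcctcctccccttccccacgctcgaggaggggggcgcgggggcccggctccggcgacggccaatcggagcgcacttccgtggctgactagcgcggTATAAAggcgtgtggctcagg
JUND: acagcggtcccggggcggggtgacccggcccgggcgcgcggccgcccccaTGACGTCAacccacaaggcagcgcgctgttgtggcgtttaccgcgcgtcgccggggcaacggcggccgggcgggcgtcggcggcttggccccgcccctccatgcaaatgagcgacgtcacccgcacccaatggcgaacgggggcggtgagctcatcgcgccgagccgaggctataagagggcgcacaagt
EGR1: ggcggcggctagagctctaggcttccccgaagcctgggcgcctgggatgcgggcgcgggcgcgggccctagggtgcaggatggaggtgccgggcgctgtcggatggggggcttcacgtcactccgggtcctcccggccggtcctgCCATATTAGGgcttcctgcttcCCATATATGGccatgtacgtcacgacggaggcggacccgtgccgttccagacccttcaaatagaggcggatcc

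In all, 6 motifs were searched on both strands: the cyclic AMP response element TGACGTCA, the AP-1 site TGACTCA, the serum response element core known as the CArG box, 2 forms of the EGR site (GCGTGGGCG and GCGGGGGCG) and the TATA box letters TATAAA. FOS, FOSB and JUNB each held TATAAA, beginning 33, 30 and 31 bases before the start, and 11.0% of 27305 promoter windows of the same length held it. JUND held TGACGTCA 200 to 193 bases before its start, found in 1.68% of all windows. EGR1 held CArG boxes 105 to 96 and 83 to 74 bases before its start, and 1.12% of all windows held at least 1. Bases farther upstream than the windows were not searched for any gene. The absence of a CArG box for FOS, and of any other motif not found, therefore holds for the window only. No match was found for FOSL2, JUN and IER2 among the 8, and the letters TGACTCA (4.08% of all windows), GCGTGGGCG (0.667%) and GCGGGGGCG (4.43%) were in none of the 8. All 240 bases of the JUN window, and 35 of the FOSL2 window, lie within exons of the same gene in the count table's annotation, so the JUN window is transcribed sequence by that annotation. A match describes letters only. Of the 6 members described below as higher in NeuT, FOS, FOSB and JUNB held TATAAA, FOSL2 and IER2 had no match and MYC had no window. JUND and EGR1, with other motifs, JUN, without a match, and FOSL1, without a window, are not among those 6. A link between these letters and the line difference was not tested.

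Total counts per library were 55050996 to 56861971, except for treated Empty replicate 1 with 37341458. Levels are given as CPM, counts per a fixed number of counts in the library after TMM scaling of its size, and a count of 0 leaves room for up to 3 counts, or 0.0511 to 0.0787 CPM, a limit that covers counting error only. Basal epithelial markers summed to 15320 to 15960 CPM in Empty and 16030 to 17170 CPM in NeuT, with its members going opposite ways: KRT5 had means of 5502 CPM in untreated Empty and 8016 CPM in untreated NeuT, and KRT17 of 5933 and 4646 CPM. The sum of 3 leukocyte markers was at most 0.0740 CPM in any library. Luminal hormone receptor markers summed to 34.3 to 36.4 CPM in Empty and 26.1 to 29.6 CPM in NeuT, and 4 general epithelial markers to 3642 to 3852 CPM and 4085 to 4288 CPM, although EPCAM, one of them, was higher in Empty, at means of 203.3 and 209.8 CPM untreated and treated against 97.1 and 98.6 CPM in NeuT. The summed level of 5 fibroblast markers was 8.51 to 9.71 CPM in Empty and 68.3 to 82.9 CPM in NeuT, and that of 2 endothelial markers 10.5 to 15.0 CPM and 8.14 to 9.87 CPM, so that every one of these sums other than the leukocyte one moved with the line. The fibroblast difference came from DCN, a matrix proteoglycan, at 2.47 to 3.58 CPM in Empty and 62.4 to 77.5 CPM in NeuT, while LUM had at most 3 counts in any library and COL1A2 and PDGFRB stayed under 1 CPM. The part of these markers in the line differences below was not tested. The 2 treated NeuT libraries stood apart from each other more than other replicates did, with a median absolute log2 difference of 0.106 per gene over 9551 genes, against 0.0537, 0.0783 and 0.0541 in untreated Empty, treated Empty and untreated NeuT. In bulk RNA, fewer cells expressing a gene and less RNA per cell cannot be told apart.

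Per length, FOSL1 was the most abundant of the 10 in untreated Empty cells and MYC in untreated NeuT cells. Levels between genes are compared as RPKM, reads scaled for library size and divided by gene length in kilobases. Other genes share 52.2% of the exonic bases of IER2 and 14.2% of those of JUNB. Reads there could have been assigned otherwise, so the places of these 2 genes are less certain. In untreated Empty the order was FOSL1 at 95.2 ± 1.1 RPKM (SD, n = 2), MYC 74.6 ± 1.6, JUNB 65.1 ± 0.49, JUND 42.1 ± 0.44, JUN 40.1 ± 1.3, FOSL2 24.5 ± 0.028, FOS 9.25 ± 0.74, EGR1 7.67 ± 1.5, IER2 6.12 ± 0.048 and FOSB 0.289 ± 0.028 RPKM. No neighbours in that order overlapped in their 2 libraries. In untreated NeuT the order was MYC at 115 ± 0.35 RPKM (SD, n = 2), JUNB 105 ± 1.7, FOSL1 97.7 ± 0.88, JUND 39.6 ± 1.3, JUN 37.9 ± 0.68, FOS 30.8 ± 1.2, FOSL2 29.7 ± 1.4, IER2 9.46 ± 0.19, EGR1 5.27 ± 0.40 and FOSB 0.542 ± 0.041 RPKM, of which only FOS and FOSL2 overlapped as neighbours. Under JG-98 the order in Empty changed only in that EGR1 (8.82 ± 1.5) and FOS (8.82 ± 1.1 RPKM) overlapped. In treated NeuT, JUNB (122 ± 8.8 RPKM) lay above MYC (105 RPKM in both libraries), and the pairs MYC and FOSL1, JUN and FOS, and IER2 and EGR1 overlapped.

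**Figure D1:**
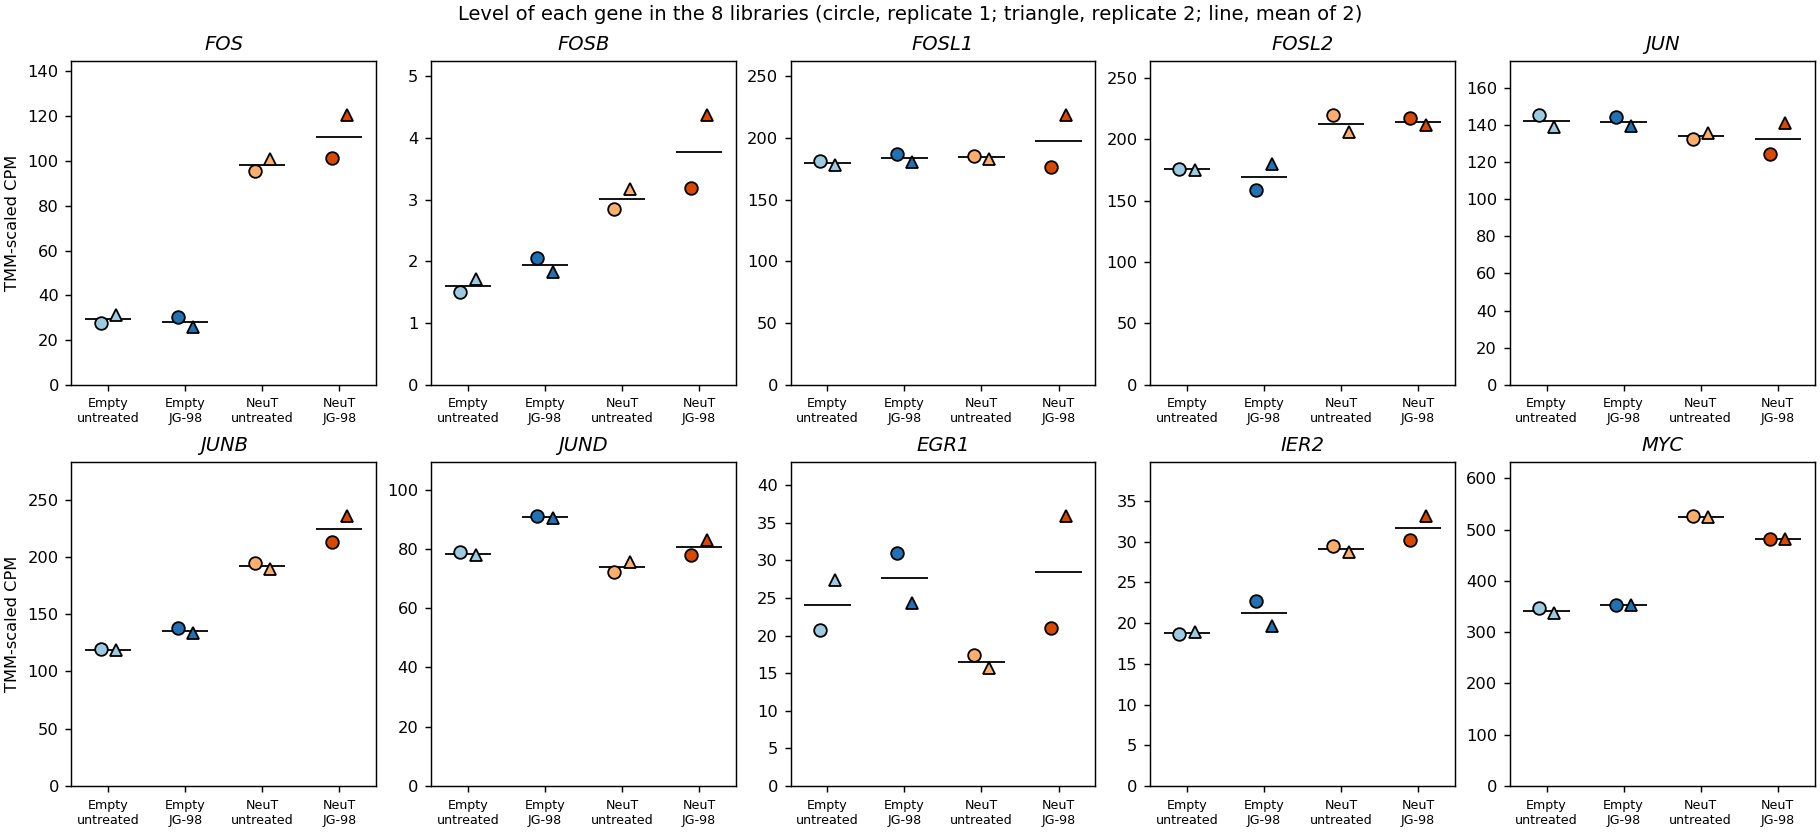
TMM-scaled CPM of each of the 10 genes on the vertical axis (from 0, a scale per gene) in the 4 groups, with circles for replicate 1, triangles for replicate 2 and a line for the mean of 2. FOS, FOSB, FOSL2, JUNB, IER2 and MYC lie higher in all 4 NeuT libraries than in all 4 Empty libraries, and EGR1 lies at 21.1 and 35.9 CPM in the 2 treated NeuT libraries.

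The make-up of both AP-1 families differed between the lines. FOS was 6.24 to 7.58% of the summed RPKM of the FOS family in the 4 Empty libraries and 18.8 to 20.6% in the 4 NeuT libraries. FOSL1, the main member in every library, made up 73.2 to 75.5% in Empty and 60.0 to 63.0% in NeuT. FOSB was under 0.5% of the family throughout, at 0.208 to 0.428%. JUNB, a JUN protein with weaker activation of many targets than JUN itself, made up 43.9 to 45.6% of the JUN family in Empty and 56.8 to 60.4% in NeuT. JUN went from 24.5 to 27.6% in Empty to 18.1 to 21.0% in NeuT, and JUND from 28.5 to 30.2% to 20.9 to 22.2%. The Empty and NeuT ranges did not overlap for any of these shares of FOS, FOSL1, JUN, JUNB and JUND. These shares are descriptions of RNA, without a test.

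**Figure D2:**
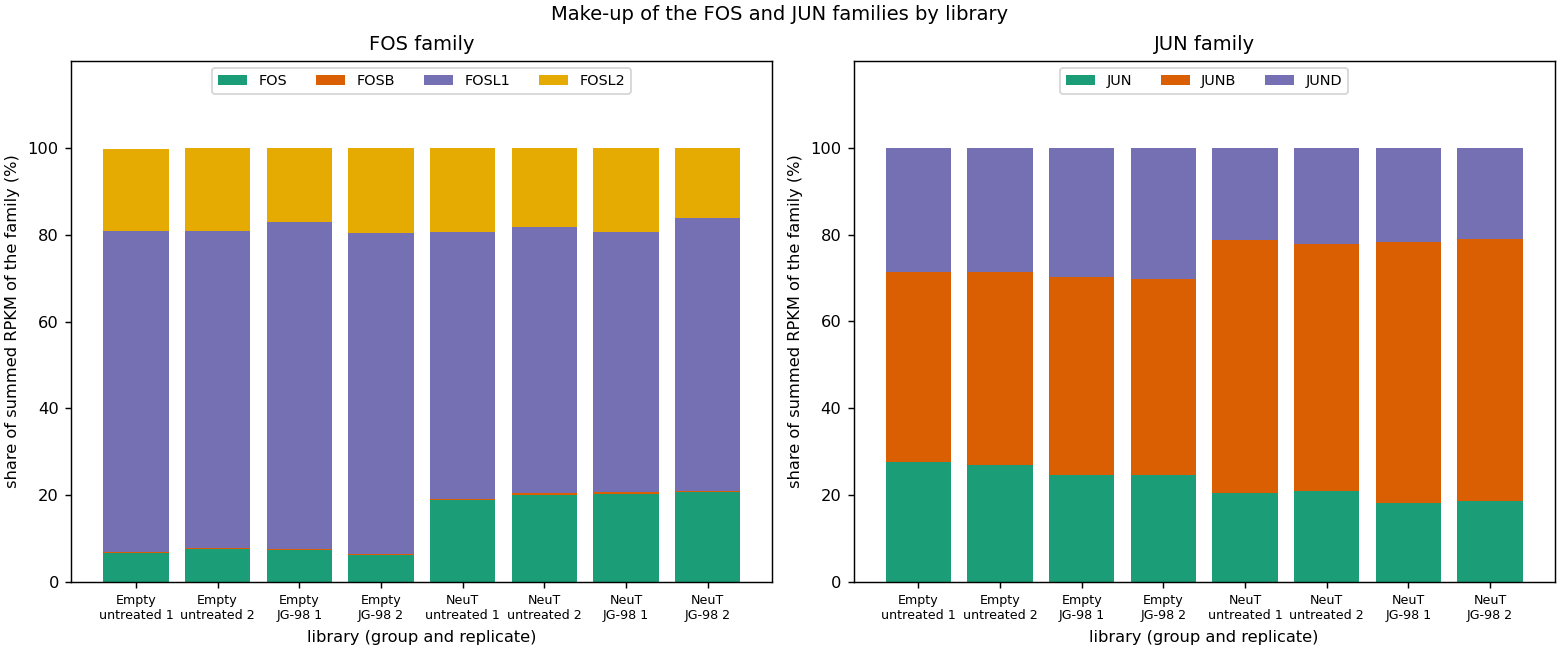
Share of the summed RPKM of the FOS family and of the JUN family (vertical axis, percent) held by each member, with 1 stacked bar per library. FOS is a larger slice in the 4 NeuT bars, at 18.8 to 20.6%, than in the 4 Empty bars, at 6.24 to 7.58%, and JUNB likewise in the JUN family.

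Between the untreated lines, 6 of the 10 members were higher in NeuT and none was lower: FOS, FOSB and FOSL2 of the FOS family, JUNB of the JUN family, IER2 and MYC. FOS differed most, by 3.33-fold. A gene is called where the edgeR quasi-likelihood test, Benjamini-Hochberg adjusted over all 17693 genes, gave under 0.05. In this comparison 42.0% of all genes were called, 21.2% as higher and 20.8% as lower, and the members' median log2 difference was 0.45 against -0.02 over all genes. Because the members were chosen with earlier results of these data known, these values only describe them. The untreated groups did not overlap for any of the 10 members, nor for 73.2% of all genes, and the treated groups not for 7 members, nor for 67.6% of all genes. Under JG-98 the same 6 were called higher and JUND lower, where 41.7% of all genes were called, 21.7% as higher and 20.0% as lower. The 6 calls between untreated lines held under every alternative run. The share of calls that are higher in NeuT fell from 50.5% to 40.7% when total counts replaced TMM factors, and from 52.0% to 41.0% under JG-98, but the 6 members were called higher either way.

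FOS, the partner that gives AP-1 its strongest activity, was at 27.8 and 31.15 CPM in the untreated Empty libraries and at 95.5 and 101 CPM in untreated NeuT. All 4 NeuT libraries, treated or not, lay above all 4 Empty libraries. The log2 difference was 1.74 (SE 0.097; edgeR's adjusted p = 4.4e-09) without drug and 1.99 (SE 0.098; edgeR's adjusted p = 1.2e-09) with it. FOSB, the least abundant member, had 85 and 98 counts (1.50 and 1.72 CPM) in untreated Empty and 156 and 171 counts (2.85 and 3.17 CPM) in untreated NeuT. Its log2 difference was 0.91 (SE 0.21; edgeR's adjusted p = 0.00201), and 0.97 (SE 0.21; edgeR's adjusted p = 0.00104) under JG-98, again with the groups apart.

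FOSL2, a longer lived FOS protein also called FRA2, was at 175.6 and 175.2 CPM in untreated Empty and 219.6 and 205.7 CPM in untreated NeuT. The groups did not overlap, and the log2 difference of 0.28 (SE 0.062; edgeR's adjusted p = 0.00156) was small beside that of FOS. FOSL1, called FRA1, was not called: it was at 181.1 and 178.2 CPM in untreated Empty and 185.5 and 183.1 CPM in untreated NeuT. The 95% interval of its log2 difference ran from -0.12 to 0.20, around 0.04 (edgeR's adjusted p = 0.731), and with total counts the sign turned to -0.03. Its libraries were apart by a few CPM. Under JG-98 the difference was 0.11 (SE 0.076; edgeR's adjusted p = 0.293), with overlapping libraries. Without treated NeuT replicate 1 it was called, at 0.26 (edgeR's adjusted p = 2.5e-04), and without treated NeuT replicate 2 it was -0.05 (edgeR's adjusted p = 0.49). Over all alternatives the adjusted p from edgeR, DESeq2 or limma-voom ran from 2.5e-04 to 0.776.

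**Figure D3:**
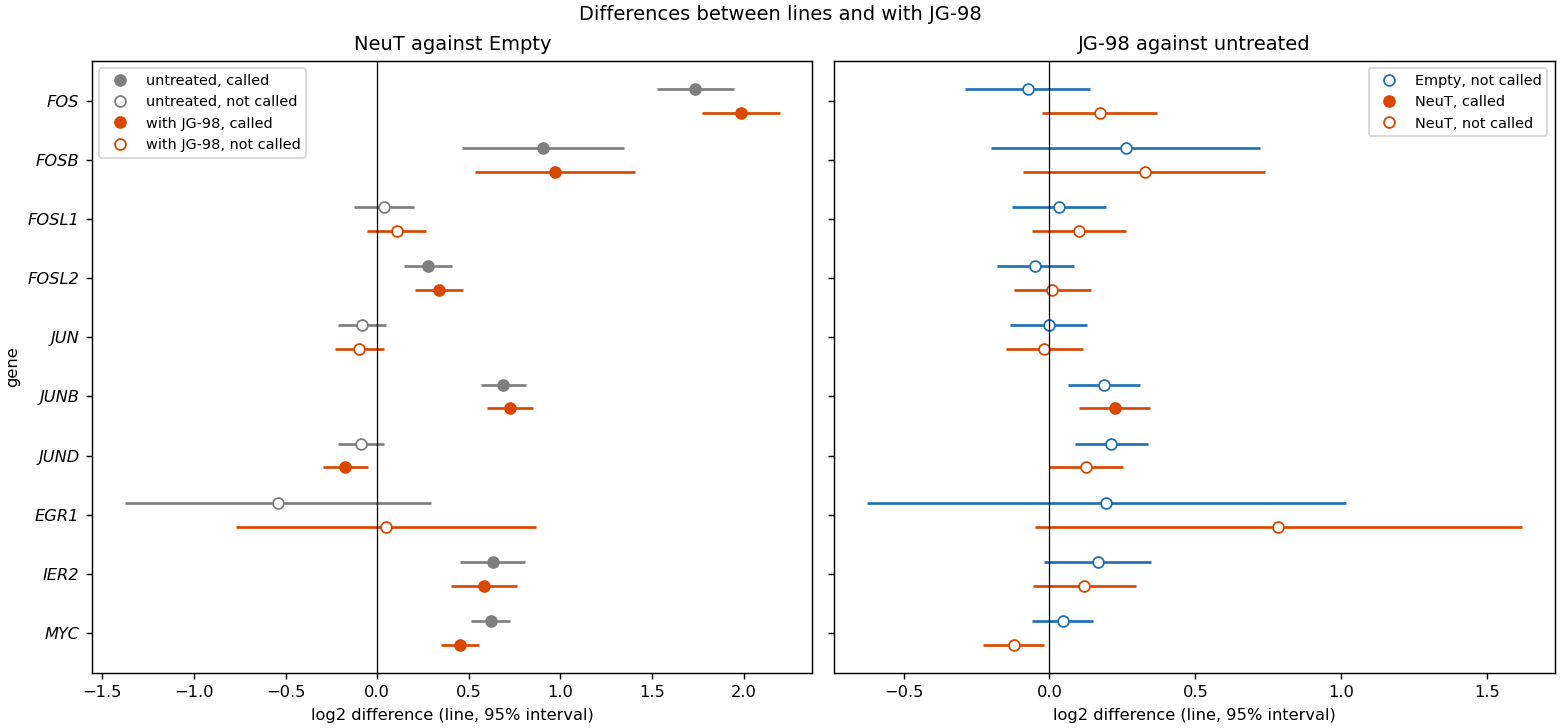
Log2 difference of each of the 10 genes on the horizontal axis, with its 95% interval as a line, in the line comparisons and in the drug comparisons, with filled points for called genes. FOS stands farthest to the right between lines, at 1.74 without JG-98 and 1.99 with it, and the drug comparisons hold 1 filled point, JUNB in NeuT at 0.22.

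Of the JUN family only JUNB was higher in NeuT. It was at 119.7 and 118.4 CPM in untreated Empty and 194.3 and 189.7 CPM in untreated NeuT, with no overlap, for a log2 difference of 0.69 (SE 0.058; edgeR's adjusted p = 4.9e-08) and of 0.73 (SE 0.058; edgeR's adjusted p = 2.6e-08) under JG-98. JUN, the first described partner of FOS, was at 145.2 and 138.7 CPM against 132.4 and 135.8 CPM, and its log2 difference of -0.08 (95% interval -0.22 to 0.05; edgeR's adjusted p = 0.317) was not called. JUND, often the JUN member of resting cells, was at 78.97 and 77.8 CPM in untreated Empty and 72.1 and 75.55 CPM in untreated NeuT. Its log2 difference of -0.09 (SE 0.059; edgeR's adjusted p = 0.266) was not called without drug, and that of -0.17 (SE 0.059; edgeR's adjusted p = 0.0262) was called under JG-98. The JUND call was lost with no filter, in the fit of only the 4 libraries compared and without any single library other than treated NeuT replicate 2, over adjusted p from 0.00234 to 0.131. With total counts JUND also passed as lower without drug (log2 -0.16, adjusted p = 0.0414, the lowest of its alternatives, which ran to 0.753). JUN under JG-98 was not called, at -0.10 with overlapping libraries (edgeR's adjusted p = 0.234). It was called lower with total counts (log2 -0.17, adjusted p = 0.0280) and without treated NeuT replicate 2 (log2 -0.19, adjusted p = 0.00934), over a range to 0.987.

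EGR1, a zinc finger factor, had the largest log2 difference between replicates of the 10 in untreated Empty, treated Empty and treated NeuT, at 0.40, -0.35 and 0.77 for replicate 2 against replicate 1. It was at 20.75 and 27.35 CPM in untreated Empty and at 17.4 and 15.6 CPM in untreated NeuT, so that both NeuT libraries lay lower. The log2 difference of -0.54 had a 95% interval from -1.38 to 0.29 and was not called (edgeR's adjusted p = 0.254). The call was reached by edgeR without robust estimation (0.0399) and in the fit of 4 libraries (0.00603), over alternatives that ran from 0.00603 to 0.592. Under JG-98 its log2 difference was 0.05 (SE 0.31), and the libraries overlapped.

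IER2, a nuclear protein of the immediate early response, was at 18.7 and 18.9 CPM in untreated Empty and 29.5 and 28.7 CPM in untreated NeuT. The groups did not overlap, at a log2 difference of 0.63 (SE 0.085; edgeR's adjusted p = 1.2e-05), and of 0.58 (SE 0.085; edgeR's adjusted p = 2.8e-05) under JG-98. Other genes share 52.2% of the exonic bases of IER2, and 14.2% of those of JUNB lie in HOOK2. Whether counting used strand is not given in the sources used here, so reads in the shared part of IER2 and JUNB could have been assigned otherwise. MYC was at 347.2 and 336.7 CPM in untreated Empty and 526.3 and 523.8 CPM in untreated NeuT, differing by 0.62 on the log2 scale (SE 0.049; edgeR's adjusted p = 2.5e-08). It was 0.45 (SE 0.049; edgeR's adjusted p = 1.2e-06) under JG-98, and the 2 lines did not overlap in either condition.

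With JG-98, 1 of these 10 genes passed the test, in 1 of the 2 lines. In Empty none of the 10 was called by edgeR, where 0.339% of all genes were. Treated and untreated libraries did not overlap for 5 members in Empty and 7 in NeuT, beside 43.1% and 44.8% of all genes. At an unadjusted p under 0.05 there were 2, JUNB (log2 0.19, edgeR's adjusted p = 0.246) and JUND (log2 0.21, edgeR's adjusted p = 0.185), and DESeq2 and limma-voom also called 0. In NeuT 1 member, JUNB, was called as higher, where 3.01% of all genes were called and 2.01% as higher. These background counts depended on single libraries: in NeuT the 533 genes called became 132 and 143 without untreated NeuT replicate 1 or 2, 343 and 344 without untreated Empty replicate 1 or 2, and 2133 without treated NeuT replicate 1. In Empty the 60 became 9 without treated Empty replicate 1, 417 and 404 without treated NeuT replicate 1 or 2, and 16 to 38 without each of the others. The drug comparisons of the 2 lines share no libraries with each other, but each shares its untreated libraries with the untreated line comparison.

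JUNB was at 119.7 and 118.4 CPM in untreated and 137.6 and 133.6 CPM in treated Empty, and at 194.3 and 189.7 CPM in untreated and 212.9 and 235.5 CPM in treated NeuT. Treated libraries lay above untreated ones in both lines. The log2 change was 0.19 (SE 0.058) in Empty and 0.22 (SE 0.058; edgeR's adjusted p = 0.0441) in NeuT, so the change had like size in both and passed in NeuT only. The interaction, which tests the difference itself, was 0.04 (SE 0.082; 95% interval -0.14 to 0.21; edgeR's adjusted p = 0.942). The NeuT call was lost with RLE factors (0.0553), without robust estimation (0.0603), in the fit of 4 libraries (0.155) and without any single library other than treated NeuT replicate 1, over a range from 3.9e-04 to 0.433. In the authors' deposited table the NeuT change of JUNB was 0.22 with an adjusted p of 0.0458, and in the authors' deposited table the Empty change was 0.17 with 0.326.

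JUND was at 78.97 and 77.8 CPM in untreated and 91.1 and 90.5 CPM in treated Empty, and at 72.1 and 75.55 CPM in untreated and 77.9 and 83.1 CPM in treated NeuT. The libraries were apart in both lines, with log2 changes of 0.21 (SE 0.059) and 0.13 (SE 0.059; edgeR's adjusted p = 0.313), neither called. When either treated NeuT library was left out, JUNB and JUND were both called in Empty, with adjusted p from 0.0163 to 0.0180. Over all alternatives run in Empty they ranged from 0.0176 to 0.847 for JUNB and from 0.0163 to 0.812 for JUND.

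EGR1 was at 17.4 and 15.6 CPM in untreated NeuT and 21.1 and 35.9 CPM after JG-98, above in both treated libraries but far apart between them. The log2 change of 0.79 (SE 0.32; 95% interval -0.05 to 1.62) was not called (edgeR's adjusted p = 0.341), and the authors' deposited table gave 0.74 with an adjusted p of 0.0684. FOS in NeuT went from 95.5 and 101 CPM to 101.1 and 120.5 CPM, a log2 change of 0.17 (SE 0.091; edgeR's adjusted p = 0.390) that was not called, and in Empty from 27.8 and 31.15 to 30.5 and 25.7 CPM, with overlap. FOSL1 in NeuT was at 176.8 and 218.5 CPM after JG-98. The values of these 3 genes depended on which treated NeuT library was used: without the first, EGR1 (log2 1.12, adjusted p = 0.0366), FOS (0.29, 0.0258) and FOSL1 (0.24, 0.00250) were called beside JUNB, and without the second, no member was. EGR1 was also called with crossed replicate numbers in NeuT, an alternative chosen after seeing the data. Over their other alternatives in NeuT, adjusted p ran from 0.0366 to 0.721 for EGR1, from 0.0258 to 0.938 for FOS and from 0.00250 to 0.865 for FOSL1.

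For MYC the treated libraries lay on opposite sides of the untreated ones in the 2 lines, and no test was passed. It was at 347.2 and 336.7 CPM in untreated and 353.2 and 352.7 CPM in treated Empty, with log2 0.05 (SE 0.049; edgeR's adjusted p = 0.829). In NeuT it was at 526.3 and 523.8 CPM untreated and 482.6 and 482.5 CPM treated, with log2 -0.12 (SE 0.049; edgeR's adjusted p = 0.229). Both treated libraries lay above the untreated ones in Empty and below them in NeuT. The interaction of -0.17 (SE 0.070; 95% interval -0.31 to -0.02) had an unadjusted p of 0.0284 and was not called (edgeR's adjusted p = 0.595). No other member had an unadjusted p under 0.05 there. No member was called in the interaction by edgeR, DESeq2 or limma-voom, where edgeR called 0.00565% of all genes, which is 1 gene. That count was 777 without treated NeuT replicate 1, 15 without treated NeuT replicate 2 and 1 to 6 without each of the others, while the members called remained 0.

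None of the other members was called with JG-98. FOSB, with the fewest counts of the 10, had 78 and 107 counts in treated Empty and 172 and 236 counts in treated NeuT, with log2 changes of 0.26 (SE 0.22) and 0.33 (SE 0.20). In NeuT it was 0.53 without treated NeuT replicate 1 and 0.07 without treated NeuT replicate 2, and in Empty it ran from 0.17 without untreated Empty replicate 1 to 0.36 without untreated Empty replicate 2. In the authors' deposited table the FOSB change was 0.05 in Empty and 0.31 in NeuT. EGR1 in Empty had 0.20 (SE 0.31) with overlapping libraries, from 0.01 without untreated Empty replicate 1 to 0.41 without untreated Empty replicate 2. FOSL2 and JUN had log2 changes between -0.05 and 0.01 in both lines, and FOSL1 had 0.03 in Empty and 0.10 in NeuT, all with overlapping libraries. IER2 had 0.17 (SE 0.087) in Empty and 0.12 (SE 0.083) in NeuT, with treated libraries higher in both lines. Across the 10 genes the median log2 change was 0.11 in Empty and 0.12 in NeuT, beside 0.00 over all genes.

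**Figure D4:**
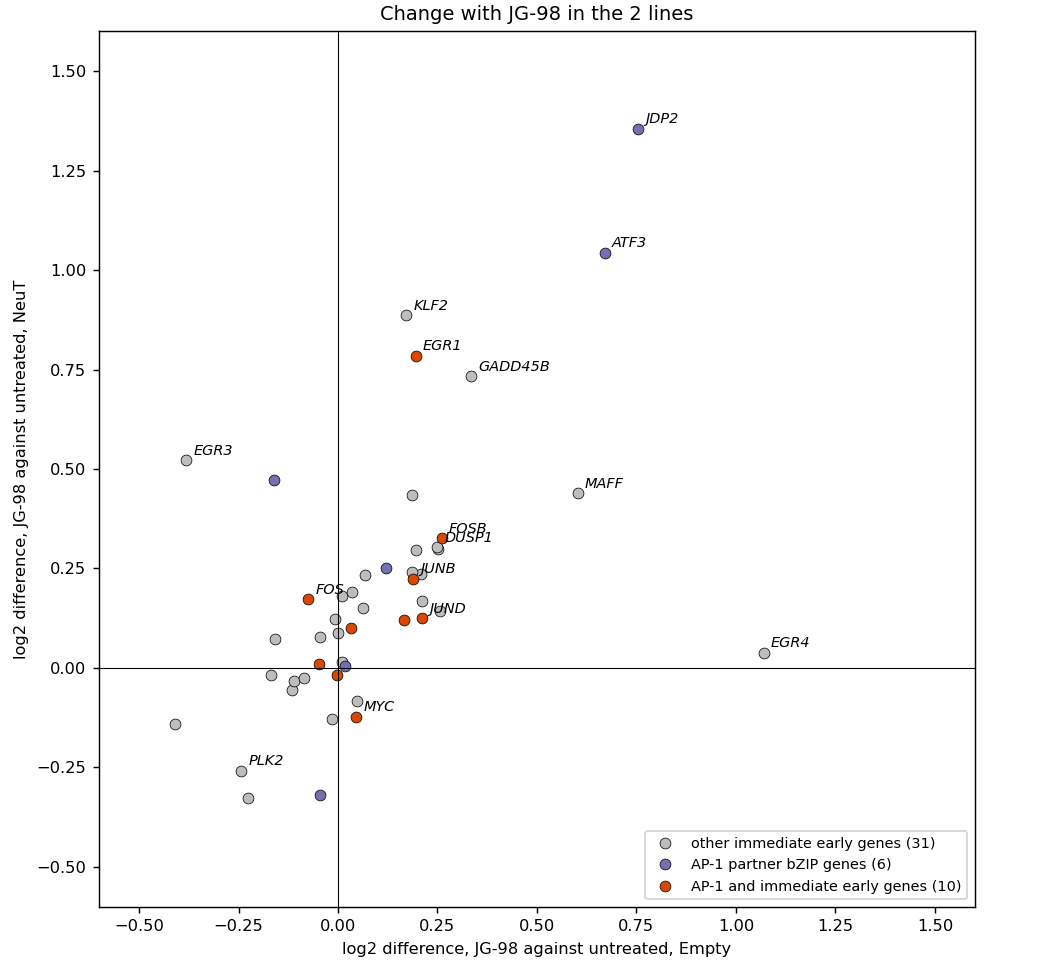
Log2 change with JG-98 in Empty (horizontal axis) and in NeuT (vertical axis), with 1 point per gene for the 10 members, 6 AP-1 partner genes and 31 other immediate early genes. JDP2, at 0.75 in Empty and 1.36 in NeuT, is highest on the vertical axis, and JUNB, the only member called, lies at 0.19 and 0.22.

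Among genes for other leucine zipper partners of AP-1, JDP2 was called higher with JG-98 in both lines and ATF3 in NeuT. Of 7 such genes 6 were tested, and BATF had at most 4 counts in any library. JDP2, which pairs with JUN proteins and represses AP-1 sites, was at 9.21 and 8.62 CPM in untreated and 16.0 and 14.1 CPM in treated Empty, and at 8.92 and 8.04 CPM in untreated and 19.6 and 23.8 CPM in treated NeuT. It rose in both lines, by 0.75 (SE 0.11; edgeR's adjusted p = 0.00694) and 1.36 (SE 0.11; edgeR's adjusted p = 3.0e-06) on the log2 scale, with treated libraries above untreated ones, while the interaction, at 0.60, did not pass (edgeR's adjusted p = 0.397). ATF3, a stress-induced partner of JUN, rose in NeuT by 1.04 (SE 0.16; edgeR's adjusted p = 0.00205). In Empty its log2 change was 0.67 (SE 0.16; edgeR's adjusted p = 0.144), with treated libraries above untreated ones, and the interaction of 0.37 did not pass (edgeR's adjusted p = 0.719). ATF2, ATF7, BATF2 and BATF3 were not called with the drug in either line. The calls were thus 1 of 6 in Empty, beside 0.339% of all genes, and 2 of 6 in NeuT, beside 3.01%. In the interaction 0 of 6 were called, beside 0.00565% of all genes (1 at an unadjusted p under 0.05, 0 with DESeq2 and with limma-voom). As the list was chosen with earlier results of these data known, these counts only describe it. In Empty, DESeq2, the fit of only the libraries compared, and edgeR without either treated NeuT library called 2 of 6. Without treated NeuT replicate 1 the interaction called 2.

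Between untreated lines, 3 of these 6 partner genes were higher in NeuT and none lower, with a median log2 difference of 0.33. That is 50% of the 6, near the 42.0% of all genes called in this comparison. BATF2 was at 0.317 and 0.263 CPM in untreated Empty and 1.85 and 1.50 CPM in untreated NeuT, differing by 2.52 on the log2 scale (SE 0.33; edgeR's adjusted p = 7.6e-06). ATF7 differed by 0.42 (edgeR's adjusted p = 0.00104) and ATF3 by 0.45 (edgeR's adjusted p = 0.0395), both with the lines apart. Under JG-98 all 6 were called higher in NeuT, where 41.7% of all genes were called and 21.7% as higher. With total counts 2 of 6 were called higher without drug and 5 of 6 under JG-98, and none was lower. Limma-voom called 2 and 6, DESeq2 called 3 and 5, and without treated NeuT replicate 2 edgeR called 3 and 4.

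Among 31 other immediate early genes tested, 16 were higher and 3 lower in untreated NeuT, with a median log2 difference of 0.39. That is 61.3% called, where of all genes 42.0% were, 21.2% as higher and 20.8% as lower. Since the list was chosen with earlier results of these data known, these shares are a description and not a test. DUSP1, a phosphatase that switches off MAP kinases, was at 137.6 and 134.6 CPM in untreated Empty and 427.1 and 419.1 CPM in untreated NeuT, far apart (log2 1.64, SE 0.058; edgeR's adjusted p = 1.5e-12). NFKBIZ, a regulator of NF-kappaB targets, was higher by 1.21 and RHOB, a small GTPase, by 1.15, while CCN1, a matrix protein, was lower, at -0.85 (SE 0.23; edgeR's adjusted p = 0.0292), PLK2 at -0.28 and SGK1 at -0.24. ARC, singled out after its values were seen, had 0 counts in all 4 Empty libraries and 22 and 44 in untreated NeuT, a ratio of 23.1 against a floor of 3 counts over the group and at least 18.2-fold higher by the lower limit of the 95% counting interval. With JG-98, 1 of 31 was called in Empty, beside 0.339% of all genes, and 4 in NeuT, beside 3.01%. MAFF, a small leucine zipper protein, rose in both (0.60, edgeR's adjusted p = 0.0136, and 0.44, edgeR's adjusted p = 0.0210). GADD45B (0.73) and DUSP1 (0.30) rose in NeuT, and PLK2 fell there by 0.26. The log2 changes of these 3 in Empty were 0.33, 0.25 and -0.24, with libraries apart but not called (edgeR's adjusted p = 0.278, 0.0958 and 0.142), and their interactions of 0.40, 0.05 and -0.01 did not pass (edgeR's adjusted p = 0.570, 0.901 and 0.984). With only the libraries compared, the calls were 4 in Empty and 1 in NeuT. They were 7 and 12 without treated NeuT replicate 1, with 5 in the interaction, and 7 and 2 without treated NeuT replicate 2.

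Genes that act upstream of the immediate early response were mixed. Of 22 ternary complex factors, MAP kinases and related genes, 9 were higher and 6 lower in untreated NeuT, with a median log2 difference of 0.07, and with total counts the split turned to 4 higher and 7 lower. That is 68.2% called, where of all genes 42.0% were, 21.2% as higher and 20.8% as lower. This list too was chosen with earlier results of these data known, so the shares only describe it. ELK3, a ternary complex factor that can repress FOS, was at 68.4 and 65.2 CPM in untreated Empty and 133.3 and 134.0 CPM in untreated NeuT, with no overlap (log2 1.00, SE 0.067; edgeR's adjusted p = 2.8e-09). MEF2D was higher by 0.90 and MAP2K1, the kinase MEK1, by 0.69, whereas MRTFA, a coactivator of serum response factor, was lower, at -0.45, MAPK8, the kinase JNK1, at -0.24 and MAP2K4, a kinase of JNK, at -0.23. RNA levels do not measure kinase activity. With JG-98 only MEF2A was called, in NeuT (log2 0.40, edgeR's adjusted p = 0.00658). This 1 gene is 4.55% of the 22, near the 3.01% of all genes called there. With only the libraries compared edgeR called 0 in NeuT, while over all libraries DESeq2 called 2 and limma-voom 1. None of the 22 was called in Empty, where 0.339% of all genes were. There 2 of the 22 had an unadjusted p under 0.05, and DESeq2 and limma-voom called 0.

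Textbook AP-1 targets were mostly higher in NeuT. Of 23 tested, 19 were higher and 2 lower in untreated NeuT, with a median log2 difference of 0.78, and 18 and 2 with total counts. That is 91.3% called, beside 42.0% of all genes, 21.2% as higher and 20.8% as lower. Because these targets were listed with earlier results of these data known, the excess over that share is a description and not a test. MMP1, interstitial collagenase, had 0 and 2 counts in untreated Empty and 110 and 132 in untreated NeuT, a ratio of scaled counts of 127 with a 95% counting interval from 34.7 to 1050. MMP10, another matrix protease, had 4 and 6 counts against 265 and 232 (log2 5.67, SE 0.32; edgeR's adjusted p = 3.7e-10), and CXCL8, a neutrophil chemokine, was at 14.5 and 12.4 CPM against 102.4 and 100.9 CPM (log2 2.92, SE 0.16; edgeR's adjusted p = 3.2e-06). The 2 lower genes, TGM1 (-0.66, SE 0.074) and SPRR1A (-0.48, SE 0.13), act in the cornified envelope of squamous cells, as do SPRR1B, which was higher (0.29, SE 0.092; edgeR's adjusted p = 0.0185), and IVL, which was not called (0.03, SE 0.085). With JG-98 edgeR called 0 of 23 in either line, beside 0.339% of all genes in Empty and 3.01% in NeuT. At an unadjusted p under 0.05 there were 7 in Empty and 9 in NeuT, DESeq2 called 0 and 1, and limma-voom called 0 and 2. With only the libraries compared, edgeR called 5 in Empty and 0 in NeuT. Without treated NeuT replicate 1 it called 7 in Empty, 9 in NeuT and 5 in the interaction, and without treated NeuT replicate 2 it called 7, 2 and 0.

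**Figure D5:**
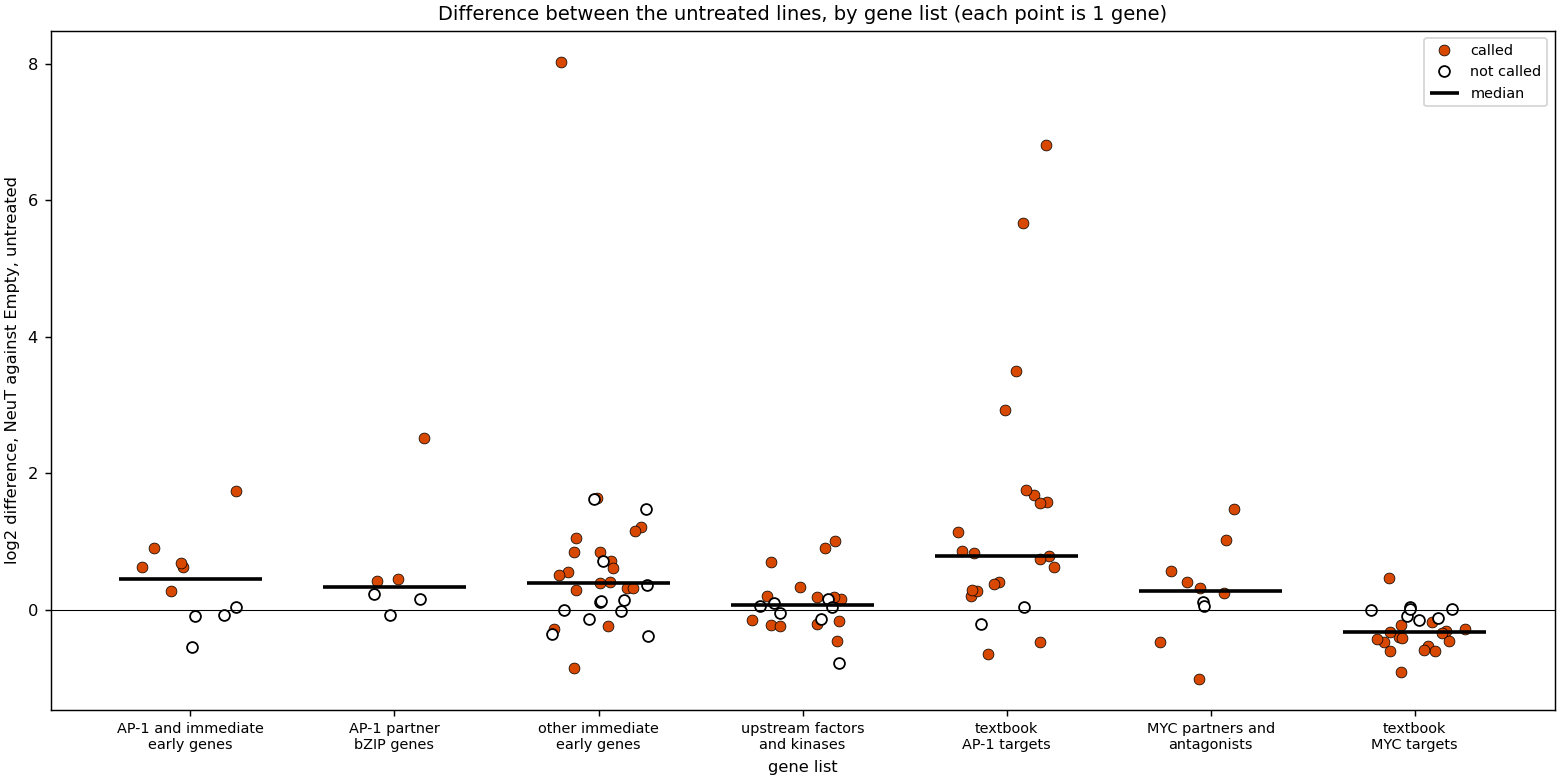
Log2 difference between untreated NeuT and untreated Empty on the vertical axis, with 1 point per tested gene in each list on the horizontal axis, filled where called, and a bar at the median. The median is 0.78 for AP-1 targets and -0.32 for MYC targets. The top points, ARC at 8.03 and MMP1 at 6.81, are fitted values that depend on the prior count because Empty had 0 and 2 counts.

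Genes around MYC differed in another way. Of 10 tested partners and antagonists, 6 were higher and 2 lower in untreated NeuT, and 5 and 2 with total counts. The list was likewise chosen with earlier results known, and 80.0% of its genes were called beside 42.0% of all genes. Those with the largest differences upward bind MAX in place of MYC and repress: MXD4, at 54.5 and 54.0 CPM in untreated Empty and 148.4 and 153.3 CPM in untreated NeuT (log2 1.48, SE 0.062; edgeR's adjusted p = 9.8e-12), MXI1 (1.03, edgeR's adjusted p = 4.3e-08) and MNT (0.57, edgeR's adjusted p = 7.9e-05). MXD3, of the same family, was lower, at -1.01 (SE 0.15; edgeR's adjusted p = 4.0e-05), as was MGA, a large MAX partner, at -0.47. MYC itself was higher in NeuT by 0.62, as given above, and MAX by 0.31 (edgeR's adjusted p = 0.00133). With JG-98, MXD1, another MAX partner, rose in NeuT by 0.48 (SE 0.078; edgeR's adjusted p = 0.00195). It was the 1 gene of 10 called there, beside 3.01% of all genes. No gene of this list was called in Empty, where 0.339% of all genes were. There 2 of the list had an unadjusted p under 0.05, and DESeq2 and limma-voom called 0.

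Textbook MYC targets were mostly lower in NeuT. Of 24 tested, 1 was higher and 16 lower in untreated NeuT, with a median log2 difference of -0.32, and 1 and 19 with total counts. That is 70.8% called, in a list again chosen with earlier results known. Of all genes 42.0% were called, 21.2% as higher and 20.8% as lower. NCL, nucleolin, was at 1158 and 1208 CPM in untreated Empty and 781.9 and 779.8 CPM in untreated NeuT (log2 -0.60, SE 0.057; edgeR's adjusted p = 2.4e-07), with the lines apart. NOP56, a ribosomal RNA processing factor, was lower, at -0.61 (edgeR's adjusted p = 1.4e-07) and TERT, the telomerase catalytic subunit, at -0.91 (SE 0.25; edgeR's adjusted p = 0.00650) at under 2 CPM. LDHA, lactate dehydrogenase, was the one higher, by 0.47 (edgeR's adjusted p = 3.1e-04). With JG-98, PTMA fell by 0.29 (edgeR's adjusted p = 0.0185) and RRS1, a ribosome assembly factor, fell by 0.28 (edgeR's adjusted p = 0.0207) in NeuT. These 2 are 8.33% of the 24, beside 3.01% of all genes called in NeuT. With only the libraries compared both calls were lost, with 0 of 24 called there, and DESeq2 called 3 and limma-voom 2. None of the 24 was called in Empty by edgeR, which called 0.339% of all genes there, or by limma-voom. DESeq2 called 1, and 5 had an unadjusted p under 0.05 by edgeR. The interaction called none of the 5 further lists' genes by edgeR, DESeq2 or limma-voom, where edgeR called 0.00565% of all genes. By edgeR's unadjusted p, 3 immediate early genes, 3 upstream genes, 0 AP-1 targets, 0 MYC partners and 1 MYC target were under 0.05. Without treated NeuT replicate 1, edgeR called 11 MYC targets and 6 upstream genes in NeuT, and 6 and 2 in the interaction.

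The treated lines were compared for the same lists, with no library shared with the untreated comparison. Of other immediate early genes 18 of 31 were higher in NeuT and 2 lower. ARC was among the 18, with 70 counts over the group against 0 in treated Empty, at least 16.5-fold higher by the lower limit of the 95% counting interval. Among called genes with a mean count of 50 or more, the largest differences were those of DUSP1 (log2 1.69), NFKBIZ (1.38) and RHOB (1.28), with PLK2 (-0.30) and SGK1 (-0.17) lower. Of all genes, 41.7% were called in this comparison, as given above. Of upstream genes 6 of 22 were higher and 3 lower, which is 40.9% of the list and near that share, with ELK3 at 1.22, MEF2D at 1.01, MAP2K1 at 0.78, MRTFA at -0.60 and MAP2K4 at -0.22, and with total counts the split was 4 and 5. Of AP-1 targets 18 of 23 were higher and 2 lower: MMP1 had a ratio of 133 (95% counting interval 36.5 to 1100), MMP10 a log2 difference of 6.14 and CXCL8 of 2.91, against -0.63 for TGM1 and -0.52 for SPRR1A.

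Of MYC partners and antagonists 7 of 10 were higher and 2 lower under JG-98, and 5 and 2 with total counts. Of all genes 41.7% were called in this comparison, 21.7% as higher and 20.0% as lower. MXD4 was at 1.39, MXI1 at 1.13 and MNT at 0.79 against MXD3 at -1.10 and MGA at -0.30. Of MYC targets 2 of 24 were higher, LDHA (0.37) and TFRC (0.16), the transferrin receptor. Another 16 were lower, led by PTMA (-0.93), NOP56 (-0.64) and FBL (-0.60), a methyltransferase of the nucleolus. With total counts 1 MYC target was higher and 19 were lower. All genes named in these lists had edgeR adjusted p of at most 0.0351, the value for SGK1.

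The genes whose levels ran most alike with each member over the 8 libraries were sought among 12746 candidates by Pearson r of log2 CPM. These values describe 8 libraries that share their line and drug groups, and most follow the line difference. For FOS they were ZNF160 and DTX3 (both r = 0.998), for FOSB UBE2R2 (0.995) and HERPUD2 (0.990), for FOSL1 PPP1R12A (0.970) and SLC52A3 (0.968), and for FOSL2 RNF122 (0.998) and OGFOD1 (0.992). For JUN they were LINC02977 (0.930) and ZC3H13 (0.925), for JUNB UBE2W (0.999) and CD55 (0.997), and for JUND DUS4L (0.976) and FAM241A (0.975). For EGR1 they were ZNF37A (0.967) and PIK3CA (0.953), for IER2 OPTN and ESM1 (both 0.997), and for MYC PARP10 and TRIM16 (both 0.998). Within the set, FOS ran with JUNB at r = 0.963 and with JUN at -0.62 over the same 8 libraries.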

How the data were processed

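Groups of poly(A)-selected RNA libraries were taken from the sample titles. Raw counts of all libraries stand in 1 deposited table with featureCounts columns, per the file headers. They name Trim Galore 0.5.0, FastQC 0.11.7, HISAT2 2.1.0, SAMtools 1.9, featureCounts 1.6.3, limma and GRCh38, per the submitters' processing notes; the annotation release, strand use and treatment of reads with several matches are not given in the sources used here. The authors also deposited a table per line with their log2 fold changes, p-values, adjusted p-values and test scores for JG-98, per the file headers.

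Counts were analysed with edgeR 4.0.16 in R 4.3.3 (filterByExpr with a minimum count of 10 and total of 15, TMM scaling, robust quasi-likelihood fit of all 8 libraries with 1 coefficient per group). Benjamini-Hochberg adjustment covered 17693 genes, and an adjusted p-value under 0.05 was called. Standard errors are the size of the log2 change over the square root of F. RPKM used the deposited gene length and the scaled library size. With 2 libraries per group, precision rests on dispersion shared across genes. The analysis steps were run on simulated data with the same spread for every gene and no difference between untreated lines. The pass mark for the interaction was lowered after its result was seen. That run therefore does not show how the steps perform under the conditions of these data. Alternatives were RLE factors, total counts, no filter, a minimum of 10 counts in each library, DESeq2 1.42.0, limma-voom (limma 3.58.1), no robust estimation, a replicate block, only the libraries compared, leaving out each library, an adjusted p under 0.01 and, chosen after seeing the data, crossed replicate numbers in NeuT.

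The members and 6 further lists were chosen with earlier results of these data known. All members and AP-1 partner genes were named. From every other list and comparison, up to 3 largest rises and 3 largest falls were taken among calls whose mean count was 50 or more and with no overlap between libraries, along with the 2 genes most like each member. Gene symbols came from the reference table of names. Per-sample columns without a matching sample numbered 0.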

Additional observations from a re-analysis of the deposited data

How the results depend on the processing

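Of the log2 values of the members, 831 of 900 recomputed values kept direction and call. The 6 calls between untreated lines kept direction and call in all, and 6 members were called without any single library. With JG-98 in NeuT, the count of members called, 1, went to 0 with RLE factors, without robust estimation, with only the libraries compared and at an adjusted p under 0.01, and ran from 0 to 4 without single libraries. In Empty it ran from 0 to 2, in the interaction it was 0 throughout, and between treated lines it ran from 6 to 8. Genes of the other lists called in Empty were 13 with no filter, 5 with DESeq2, 12 with only the libraries compared and 1 at an adjusted p under 0.01, and 0 to 18 without single libraries. In NeuT they were 20 with no filter, 4 with only the libraries compared and 6 at an adjusted p under 0.01, and 3 to 43 without single libraries. In the interaction they were 2 with no filter and 0 to 20 without single libraries, against 64 to 87 between untreated and 73 to 88 between treated lines. The cause was not tested.

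Values near 0 changed sign. JUN in Empty was 0.00 with total counts and with at least 10 counts in every library, and 0.002 with only the libraries compared. With total counts, FOSL1 between untreated lines was -0.032 and EGR1 between treated lines -0.028. Without single libraries, the changes in Empty ran from -0.200 to 0.049 for FOS, -0.145 to 0.038 for FOSL2 and -0.036 to 0.031 for JUN. Those in NeuT ran from -0.068 to 0.243 for FOSL1, -0.044 to 0.055 for FOSL2 and -0.120 to 0.068 for JUN. In the interaction they ran from -0.194 to 0.268 for FOSB, -0.105 to 0.206 for FOSL1, -0.028 to 0.155 for FOSL2, -0.122 to 0.066 for JUN, -0.052 to 0.100 for JUNB and -0.149 to 0.056 for IER2. Between treated lines they ran from -0.053 to 0.258 for FOSL1 and -0.383 to 0.393 for EGR1.

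Replicate numbers showed little pairing of libraries outside the 2 treated groups. Replicate differences of 2 groups correlated with r from -0.10 to 0.064 for 5 pairs of groups, over 9551 genes. Between treated Empty and treated NeuT r was 0.244, and its cause was not tested. With the replicate block, members called stayed at 6 and 7 between lines, 1 in NeuT and 0 in Empty, and genes of the other lists numbered 11 in NeuT and 2 in Empty. Crossed replicate numbers in NeuT, chosen after seeing the data because of the negative r, gave 943 genes, 2 members (EGR1 and JUNB) and 24 genes of the other lists, against 185 genes without a block in the same 4 libraries. Depth limits FOSB most, with 78 to 236 counts per library.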
